A study of Mus musculus with 15 samples.

Results

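The protein-folding apparatus of the endoplasmic reticulum (ER) was followed through 36 mouse genes, listed by symbol and found by matching those symbols to the gene identifiers of the deposited table. They comprise 11 genes of the ER HSP70 system, the ER HSP90 gene and its partner Mzb1 (2 genes), 8 disulfide enzymes, 4 prolyl isomerases, 6 genes of the lectin cycle and 5 membrane-bound stress sensors. All 36 were found among 51912 genes, and all 36 passed a filter on low counts that 15692 genes passed. The rule uses gene names, not measured values, but the list was chosen with earlier results of these data known. RSEM assigned part of the reads of Hsp90b1, Ppib and, in 4 libraries, Dnajb9 in fractions (counts not whole), which happens when reads also fit another locus.

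Wild-type mouse B cells were cultured with IL-4 (100 ng/ml) on 40LB cells, a feeder line that supports B cell growth in a dish. After 6 days an unsorted sample of the whole culture was taken (D6 group). For the other groups the cells were removed from the feeders, left unstimulated for another 2 days and sorted by flow cytometry at day 8 into IgE iGC, IgG1 iGC, IgE plasma cells (IgE PC) and IgG1 plasma cells (IgG1 PC). The 5 groups had 3 biological replicates each, so 15 polyA RNA libraries in all. Wild-type genotype, feeder culture and IL-4 were common to every group, so the sorted groups differ from D6 in 2 days without feeders as well as in sorting.

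ER chaperones hold newly made secreted and membrane proteins until they fold, disulfide enzymes form and exchange the bonds between cysteines, and the lectin cycle folds proteins through their sugar chains. When unfolded protein builds up, sensors in the ER membrane start the unfolded protein response (UPR), in which IRE1 (gene Ern1) splices the mRNA of the transcription factor XBP1, ATF6 is cut to release a transcription factor, and PERK (gene Eif2ak3) slows translation. Plasma cells secrete antibody in large amounts, and the growth of their ER depends on XBP1. Antibody heavy chains are held in the ER by the HSP70 chaperone BiP (gene Hspa5) until light chains bind.

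The ER stress element (ERSE) is a promoter motif read by ATF6 and XBP1 together with the factor NF-Y. Its letters, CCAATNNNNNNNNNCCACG, were searched on both strands from 250 bases before to 50 bases after the transcription start in RefSeq promoters of build GRCm38.p6. Promoters were held for 30 of the 36 genes, and 7 of these 30 (23.3%) contained the motif, against 37 of 27025 genes (0.137%) among all promoters of that length. The matches are printed to show the letters that these 7 promoters share. Each is given 5′ to 3′ on the gene's own strand, with the motif in capitals and 15 bases on either side, and reads as the reverse complement where the match lay on the opposite strand (Calr, Creld2 and the second of Hsp90b1).
Hspa5, chr2:34772010-34772058, plus strand, match from 65 bases upstream: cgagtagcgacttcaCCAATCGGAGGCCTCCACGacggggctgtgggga
Hsp90b1, chr10:86705623-86705671, minus strand, match from 212 bases upstream: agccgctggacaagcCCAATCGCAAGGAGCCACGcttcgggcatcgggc
Hsp90b1, chr10:86705518-86705566, minus strand, match from 107 bases upstream: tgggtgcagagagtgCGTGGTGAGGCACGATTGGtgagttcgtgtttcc
Dnajc3, chr14:118937812-118937860, plus strand, match from 105 bases upstream: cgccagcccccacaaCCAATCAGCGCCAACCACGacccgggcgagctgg
Creld2, chr15:88819505-88819553, plus strand, match from 126 bases upstream: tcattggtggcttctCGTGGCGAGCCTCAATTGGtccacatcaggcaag
Pdia6, chr12:17266476-17266524, plus strand, match from 98 bases upstream: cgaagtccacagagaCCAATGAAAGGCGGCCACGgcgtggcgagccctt
Calr, chr8:84847060-84847108, minus strand, match from 162 bases upstream: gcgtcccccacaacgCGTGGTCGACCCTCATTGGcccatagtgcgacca
Canx, chr11:50325785-50325833, minus strand, match from 145 bases upstream: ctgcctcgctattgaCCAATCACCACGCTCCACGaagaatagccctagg
The related ERSE-II, in which ATTGG is followed after 1 base by the same CCACG, was found in Dnajb11 and in 12 of 27025 genes. The core of the UPR element (TGACGTG), bound by XBP1, was found in 5 of the 30 promoters (Fkbp11, Hspa5, Mogs, Txndc11 and Txndc5) and in 2.22% of all genes. A match describes the letters and is not evidence of binding.

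Deposited expected counts summed to 17.7 M to 54.1 M per library. Sorted groups carried the marker genes of their labels: 10 plasma cell markers summed to 9404 to 10463 TPM (transcript abundance, scaled for length to the same total in every library) in IgE PC and 5715 to 6862 TPM in IgG1 PC, against 537 to 930 TPM in the iGC libraries. The 8 germinal centre markers summed to 422 to 527 TPM in iGC libraries and 73.0 to 131 TPM in plasma cell libraries. T cell and macrophage markers summed to at most 15.1 and 25.7 TPM. IgG1 PC replicate 1 stood apart from its group: it was the highest of the 3 libraries for 30 of the 36 genes, the lowest for 1 (Ern1) and in the middle for 5. The median coefficient of variation of the genes, without the barely detected Pdia5 and Fkbp14, was 18.7% in IgG1 PC and 2.58% to 4.13% in the other 4 groups. The same library had the lowest sums of B cell markers (2940 TPM, against 3540 and 3562 TPM) and germinal centre markers (83.5 TPM, against 115 and 131 TPM) of its group. Counts of called and of 2-fold changed genes, over all 36, that rest on IgG1 PC are therefore also given without it where they change. The main fit shares 1 estimate of spread per gene over all groups. Its SE and p-values therefore do not measure the spread of IgG1 PC, or of any other group, alone.

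Between iGC and plasma cells, every one of the 36 genes rose in both isotypes. In IgE cells 36 of 36 were called higher, where 30.5% of all genes tested were called higher, and 35 of them rose at least 2-fold (13.7% of all genes). In IgG1 cells 36 of 36 were called higher, against a background of 30.1%, and 31 rose at least 2-fold (14.1%). Without IgG1 PC replicate 1 these counts were 35, without Fkbp14, and 29, without Fkbp14 and Atf6b (log2 0.88). Both the called and the 2-fold counts include 2 barely detected genes, Pdia5 and Fkbp14. The call of Pdia5 in IgE was lost under 9 alternatives. The median log2 change was 2.87 in IgE and 2.45 in IgG1, while the median over all genes was -0.08 and 0.01. A call here means a Benjamini-Hochberg adjusted p under 0.05 in edgeR's quasi-likelihood test. With TMM scaling, the 3 plasma cell libraries lay above the 3 iGC libraries for all 36 genes in both isotypes. For 33 of 36 all 6 plasma cell libraries lay above all 9 others, the exceptions being Canx, Pdia5 and Fkbp14. Such separation was not counted over all genes, so these counts have no background share. Scaling by total counts in place of TMM moved the median of all genes to -0.55 in IgE and -0.22 in IgG1, and left the median of the 36 genes 2.95 and 2.43 above it. On the log2(TPM + 1) scale, limma called 33 higher in each isotype, without Dnajc10 (0.01, adjusted p = 0.91), Pdia5 and Fkbp14 in IgE and without Dnajc10, Canx (0.01, adjusted p = 0.91) and Fkbp14 in IgG1. In bulk RNA, fewer expressing cells and less RNA per cell cannot be told apart.

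**Figure D1:**
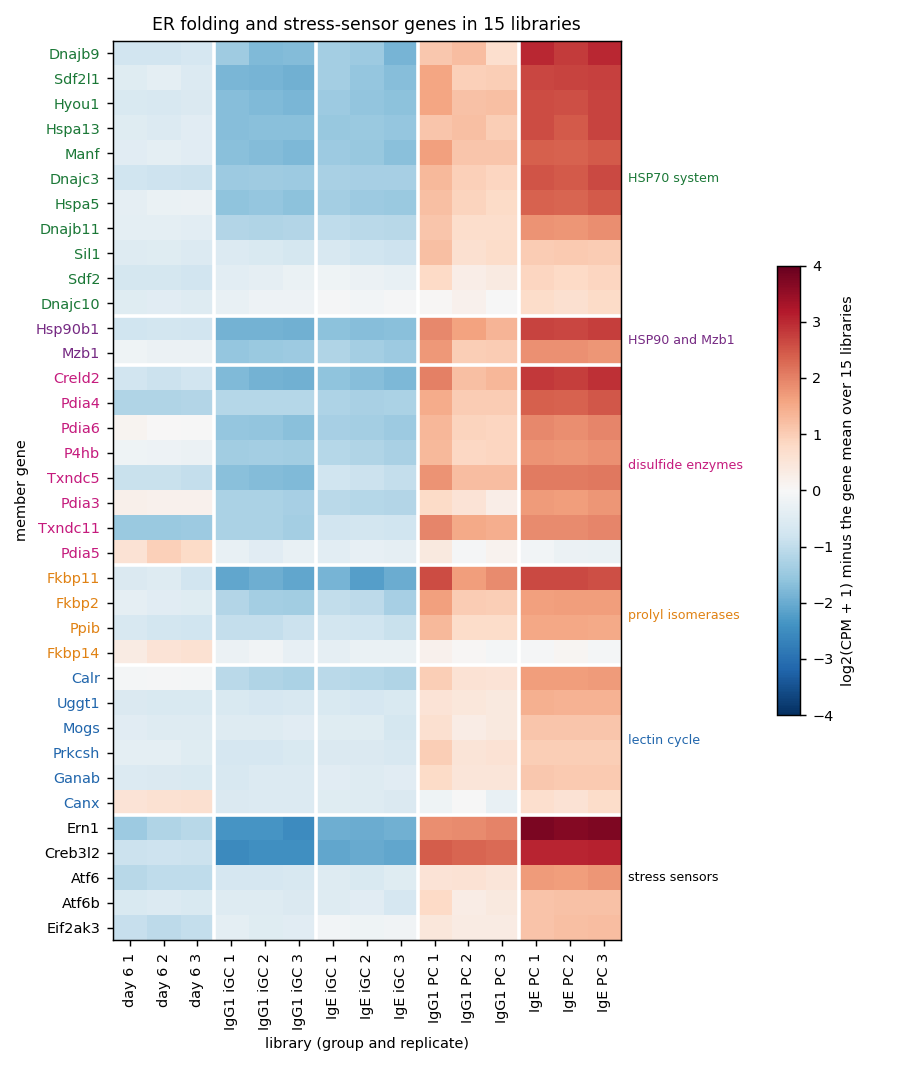
Expression of the 36 genes (rows, grouped and coloured by role) in the 15 libraries (columns), as log2(CPM + 1) minus the gene's mean over all libraries, where CPM is the count relative to the TMM-scaled library total. Red is concentrated in the 6 plasma cell libraries at the right, and Canx, Pdia5 and Fkbp14 are the rows in which day 6 libraries match or exceed a plasma cell group.

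Summed over the 36 genes, the share of all TPM was 0.485%, 0.476% and 0.457% in the IgE iGC libraries and 2.67%, 2.63% and 2.60% in IgE PC, a 5.58-fold increase of the mean. In IgG1 cells it went from 0.431%, 0.434% and 0.425% to 1.64%, 1.49% and 1.41%, 3.52-fold. Neither pair of groups overlapped, and the lowest IgE PC library lay above the highest IgG1 PC library. Immunoglobulin transcripts alone took 39.9% to 42.5% of TPM in IgE PC and 33.4% to 41.1% in IgG1 PC; with these left out of the total, the 36 genes made up 4.46% ± 0.07 (SD, n = 3) of TPM in IgE PC and 2.39% ± 0.34 in IgG1 PC. On this per-length scale the most abundant in IgE PC were Hsp90b1 at 4520 TPM, Mzb1 at 3203 TPM, Hspa5 at 2870 TPM and Calr at 2747 TPM. With immunoglobulin genes left out, 8 of the 36 ranked among the 100 most abundant genes in IgE PC and 3 in IgG1 PC.

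**Figure D2:**
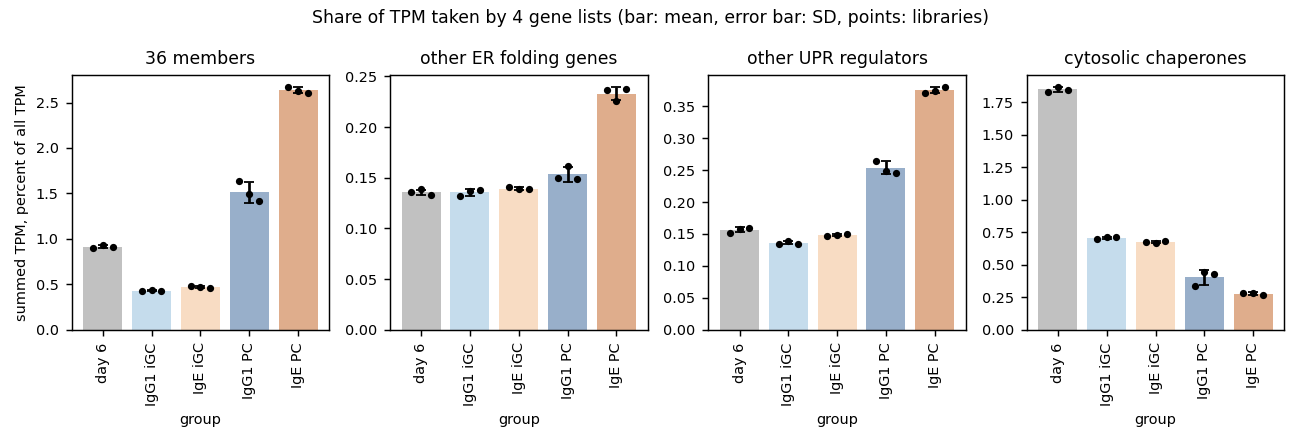
Share of all TPM (percent, linear axes from 0, a separate scale per panel) taken by the 36 genes and by 3 other gene lists in each group; bars are means of 3 libraries, error bars SD and points libraries. The 36 genes reach 2.64% in IgE PC and 1.51% in IgG1 PC, while 30 cytosolic chaperones fall from 1.85% at day 6 to 0.279% and 0.404%.

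The HSP70 system had the highest median change of the role groups in IgE (log2 3.87, against 2.57 in IgG1). BiP, the ER HSP70, works with J-domain proteins that hand it clients (Dnajb9, Dnajb11, Dnajc3, Dnajc10), with exchange factors that free it of ADP (Hyou1, Sil1) and with Sdf2l1 and Sdf2, which join J-domain proteins in the ER. Hspa5 mRNA measured 515, 485 and 478 CPM in IgE iGC and 6886, 6750 and 7235 CPM in IgE PC. In IgG1 cells it measured 435, 452 and 422 CPM in iGC and 3095, 2450 and 2251 CPM in PC. The plasma cell libraries were high in both isotypes, without overlap, and those of IgE were at least 2 times those of IgG1. The rise was 14.1-fold in IgE (log2 3.82 ± 0.10 SE, adjusted p = 7.2e-14) and 5.96-fold in IgG1 (2.57 ± 0.10, adjusted p = 5.4e-12).

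Dnajb9 (ERdj4), a J-domain protein that is itself a classical UPR target and holds IRE1 in check, had the largest rise of the HSP70 system in IgE. It read 22.1, 20.9 and 15.5 CPM in IgE iGC against 483, 408 and 477 CPM in IgE PC, a 23.1-fold rise. IgG1 cells went from 21.0, 16.6 and 16.9 CPM to 124, 139 and 92.9 CPM, 6.52-fold. The 2 iGC groups overlapped, whereas the lowest IgE PC library was far above the highest IgG1 PC library. Sdf2l1 had the largest rise of the HSP70 system in IgG1, 8.66-fold, and rose 19.5-fold in IgE. Of the rest, Hyou1 rose 18.3-fold in IgE and 8.53-fold in IgG1, Hspa13 (an HSP70 relative of the microsomes) 17.9-fold and 7.21-fold, Manf (a secreted protein that binds BiP) 15.6-fold and 8.29-fold, and Dnajc3 (an inhibitor of PERK and BiP co-chaperone) 14.6-fold and 5.68-fold. Dnajb11 rose 7.40-fold and 4.10-fold.

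A second set of the same system rose little. Sil1 increased 3.59-fold in IgE and 2.93-fold in IgG1, and Sdf2 2.10-fold and 1.80-fold. Dnajc10, a J-domain protein with disulfide reductase activity, was at 115, 111 and 115 CPM in IgE iGC and 196, 184 and 203 CPM in IgE PC; in IgG1 it was at 95.4, 104 and 103 CPM and then 123, 135 and 117 CPM. Its rises of 1.71-fold and 1.24-fold were the smallest of the 36, and in IgG1 the call was lost with total-count scaling (log2 0.08, adjusted p = 0.31) and the direction turned on the log2(TPM + 1) scale (-0.34). The paralogs thus parted: the ratio of Sdf2l1 to Sdf2 on the TPM scale was 0.58 ± 0.06 (SD, n = 3) in IgE iGC and 5.29 ± 0.23 in IgE PC, and 0.52 ± 0.03 and 2.32 ± 0.08 in IgG1.

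Hsp90b1 encodes GRP94, the ER HSP90, and Mzb1 a plasma cell protein that acts with it on immunoglobulin heavy chains and integrins. Hsp90b1 went from 638, 607 and 618 CPM to 13004, 12574 and 13635 CPM in IgE, and from 537, 538 and 522 CPM to 7630, 6114 and 5117 CPM in IgG1. The groups were well separated, with rises of 21.0-fold (log2 4.40 ± 0.12) and 11.8-fold (3.56 ± 0.11). Mzb1 rose 8.94-fold in IgE and 6.91-fold in IgG1. In IgG1 PC its libraries were uneven, at 2683 CPM in replicate 1 and 1606 and 1626 CPM in the others, against 2869, 2849 and 2771 CPM in IgE PC. Per length, Hspa5 and Hsp90b1 were near 1 to 1 in iGC cells (ratio 1.00 ± 0.03 in IgE, 1.04 ± 0.05 in IgG1), and Hsp90b1 led in plasma cells (0.635 ± 0.006 and 0.508 ± 0.037).

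All 8 disulfide enzymes, the barely detected Pdia5 among them, were called higher in both isotypes (30.5% of all genes in IgE, 30.1% in IgG1). Without Pdia5, 7 of them rose at least 2-fold in both (13.7% and 14.1% of all genes). Creld2, a small cysteine-rich ER protein with disulfide isomerase activity, rose most, from 33.4, 31.1 and 28.7 CPM to 735, 704 and 781 CPM in IgE (23.7-fold) and from 29.8, 26.9 and 26.2 CPM to 416, 239 and 261 CPM in IgG1 (11.0-fold). Pdia4 (ERp72, an isomerase of the same family) followed in IgE with 12.8-fold, against 5.01-fold in IgG1. Pdia6, P4hb (protein disulfide isomerase itself) and Pdia3 (the isomerase that works with the ER lectins) rose 9.84, 8.15 and 7.15-fold in IgE and 6.26, 5.26 and 3.56-fold in IgG1. Txndc5 and Txndc11, thioredoxin-domain proteins of the ER, rose 7.71 and 6.45-fold in IgE and 9.06 and 7.86-fold in IgG1.

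Pdia5 was close to undetected in every sorted group. It had 1, 3 and 1 counts in IgE iGC, 9, 5 and 4 in IgE PC, 4, 0 and 4 in IgG1 iGC and 23, 17 and 23 in IgG1 PC, against 45, 68 and 52 at D6. The groups of each isotype did not overlap, but with so few counts no fold is given, and the call in IgE (adjusted p = 0.046) was lost with total-count or upper-quartile scaling, without the count filter, with the replicate block, with limma, and on leaving out any of 4 of the 6 libraries compared (IgE iGC replicates 1 and 3, IgE PC replicates 1 and 2). Summed markers of feeder fibroblasts were at 196 to 278 TPM at D6, 31.1 to 49.3 TPM in iGC, 8.41 to 13.4 TPM in IgE PC and 34.4 to 75.9 TPM in IgG1 PC. Like Pdia5 they were highest at D6 and higher in IgG1 PC than in IgE PC, but from iGC to plasma cells in IgE the marker sum was lower and Pdia5 higher. Their part in the Pdia5 values was not tested.

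Prolyl isomerases turn the peptide bond before proline. Fkbp11, a membrane-anchored member known from secretory tissues, had 1.57, 1.03 and 1.34 CPM in IgE iGC and 57.6, 56.8 and 54.8 CPM in IgE PC, and 1.23, 1.42 and 1.22 CPM in IgG1 iGC and 55.4, 29.0 and 33.5 CPM in IgG1 PC. The rises of 42.6-fold and 30.3-fold started from a low level, and the IgG1 PC library at 55.4 CPM, replicate 1, was inside the range of IgE PC. Fkbp2 rose 7.24-fold in IgE and 6.27-fold in IgG1, and Ppib (cyclophilin B) 5.07-fold and 3.65-fold. Fkbp14, an isomerase best known for collagen folding, was barely detected, with 3 to 10 counts in iGC libraries, 9 to 22 in plasma cell libraries and 33, 44 and 44 at D6. In IgG1, leaving out PC replicate 1 (adjusted p = 0.069) or iGC replicate 3 (adjusted p = 0.082) ended its call.

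The lectin cycle rose least, with medians of 1.63 in IgE and 1.13 in IgG1 (log2). Calnexin (Canx, in the membrane) and calreticulin (Calr, soluble) bind monoglucosylated glycoproteins, Mogs and glucosidase II (Ganab and Prkcsh) trim the glucoses, and Uggt1 puts one back on proteins that are not folded. Calr had the largest rise, from 755, 721 and 693 CPM to 5102, 5054 and 5142 CPM in IgE (7.06-fold) and from 759, 686 and 667 CPM to 3133, 2362 and 2315 CPM in IgG1 (3.70-fold). Canx rose 2.27-fold in IgE and 1.33-fold in IgG1, from 450, 436 and 422 CPM to 996, 935 and 1041 CPM and from 420, 427 and 428 CPM to 560, 625 and 511 CPM. The soluble lectin therefore gained on its membrane partner: the TPM ratio of Calr to Canx was 3.22 ± 0.04 (SD, n = 3) in IgE iGC and 9.18 ± 0.09 in IgE PC, and 3.10 ± 0.10 and 7.24 ± 1.05 in IgG1. Uggt1 rose 4.11-fold in IgE and 2.14-fold in IgG1, Mogs 3.20-fold and 1.94-fold, Prkcsh 3.00-fold and 2.56-fold, and Ganab 2.88-fold and 2.25-fold.

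The 5 stress sensors split into a pair that rose steeply and a trio that rose modestly. Ern1, the IRE1 kinase and RNase, went from 15.4, 14.7 and 15.4 CPM to 847, 808 and 843 CPM in IgE, and from 11.1, 11.1 and 9.97 CPM to 227, 231 and 246 CPM in IgG1. These are rises of 54.9-fold (log2 5.78 ± 0.09) and 21.8-fold (4.45 ± 0.09), the first being the largest of the 36 in IgE. Creb3l2 (BBF2H7), a transmembrane transcription factor cut like ATF6 and known for driving secretory pathway genes, went from 8.41, 8.83 and 8.42 CPM to 327, 329 and 336 CPM in IgE (38.6-fold). In IgG1 it went from 5.84, 6.33 and 6.34 CPM to 211, 199 and 193 CPM (32.6-fold), the largest rise of the 36 in that isotype. In neither gene did any 2 of the 5 groups overlap.

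Atf6 went from 157, 149 and 160 CPM to 744, 718 and 779 CPM in IgE (4.81-fold) and from 141, 141 and 143 CPM to 331, 340 and 314 CPM in IgG1 (2.32-fold). Its paralog Atf6b went from 69.6, 71.5 and 62.6 CPM to 221, 225 and 224 CPM (3.29-fold) and from 69.2, 69.8 and 65.9 CPM to 172, 123 and 130 CPM (2.07-fold). Eif2ak3, the PERK kinase, went from 86.7, 82.1 and 83.5 CPM to 206, 213 and 222 CPM (2.54-fold) and from 70.2, 66.4 and 68.3 CPM to 128, 117 and 117 CPM (1.77-fold). For all 3 genes the order was IgE PC above IgG1 PC above both iGC groups, with no library of one plasma cell group inside the other.

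**Figure D3:**
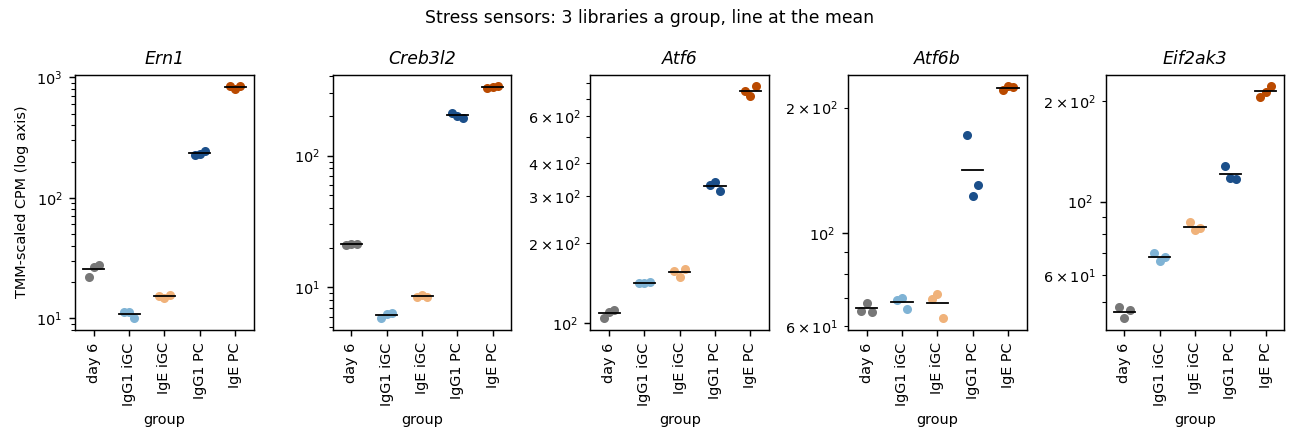
TMM-scaled CPM (log axes, a separate range per panel) of the 5 stress sensors in the 3 libraries of each group, with a line at the mean. IgE PC is highest in every panel; Ern1 and Creb3l2 dip in iGC below day 6, Atf6 and Eif2ak3 do not.

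IgE plasma cells held more of nearly all of these mRNAs than IgG1 plasma cells. Directly compared, 33 of 36 were called higher in IgE PC, where 27.4% of all genes were, 1 was called lower (Pdia5; 30.7% of all genes were lower), and Sil1 (log2 0.15 ± 0.11) and Fkbp14 (-0.17 ± 0.35) were not called. The median was 0.82, and -0.05 over all genes. At least 2-fold higher were 13 of 36, against 3.83% of all genes. For 31 all IgE PC libraries lay above all IgG1 PC libraries, a separation not counted over all genes. Dnajb9 differed most, 3.85-fold, followed by Ern1 (3.54-fold), Sdf2l1 (2.86-fold), Hspa13 (2.80-fold), Dnajc3 (2.80-fold) and Hspa5 (2.68-fold). By role, the median difference was 1.31 for the HSP70 system, 0.83 for the disulfide enzymes, 0.83 for the sensors, 0.79 for the HSP90 pair, 0.74 for the lectin cycle and 0.48 for the prolyl isomerases (log2). The largest in the other role groups were Hsp90b1 (2.08-fold), Creld2 (2.43-fold), Calr (1.96-fold) and Ppib (1.5-fold).

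Without IgG1 PC replicate 1, 34 genes were called higher and 0 lower; Sil1 was then called (log2 0.33), and Pdia5 was not (adjusted p = 0.092). At least 2-fold higher were then 16, with Dnajb11 (1.12), Calr (1.13) and Pdia6 (1.04, log2) added. For 34 of 36 all IgE PC libraries lay above the other 2 IgG1 PC libraries, again not counted over all genes. With total-count scaling, 27 were called higher and 1 lower, and with upper-quartile scaling 28 and 1; the calls of Txndc11, Prkcsh, Fkbp2, Fkbp11 and Sdf2 were lost in both. Leaving out IgG1 PC replicate 2 or replicate 3 ended the calls of Txndc11, Prkcsh, Fkbp2 and Fkbp11, leaving out any IgE PC library that of Txndc11, and leaving out IgE PC replicate 2 or 3 that of Pdia5. Marker sums differed between the same groups. Of 10 B cell markers 7 were lower in IgE PC (2022 to 2260 TPM in sum, against 2940 to 3562 TPM in IgG1 PC), of 10 plasma cell markers 9 were higher, and of 13 feeder markers 11 were lower. Their part in the differences between IgE PC and IgG1 PC was not tested.

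Between the iGC groups of the 2 isotypes the differences were smaller. In IgE iGC 5 of 36 (13.9%) were called higher, against 1.99% of all genes, and 0 were called lower (1.88% of all genes). For 19 of 36 all IgE iGC libraries lay above all IgG1 iGC libraries, for 1 (Pdia4) below, and for 16 the groups overlapped. How often all genes separated in this way was not counted, so the 19 have no background to be read against. Txndc5 differed most, at 578, 560 and 524 CPM in IgE iGC and 312, 303 and 294 CPM in IgG1 iGC, 1.83-fold without overlap. The others were Txndc11 (1.45-fold), Ern1 (1.41-fold), Creb3l2 (1.39-fold) and Eif2ak3 (1.23-fold), so 3 of the 5 were sensors. A fit to the 2 iGC groups alone called 13 higher and 1 lower (Pdia4), and limma on log2(TPM + 1) called 2 higher. The shares of all genes above belong to the main fit and are no background for these counts. Summed plasma cell markers stood at 859 to 930 TPM in IgE iGC and 537 to 570 TPM in IgG1 iGC, with 4 of 10 called higher; their part in these 5 differences was not tested.

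Estimates, called or not, are counted first, without a share of all genes beside them. The estimated change from iGC to plasma cell was itself larger in IgE than in IgG1 for 33 of the 36 genes. The test of that difference, an interaction contrast, was called for 26, all in the direction of a larger rise in IgE, where 19.8% of all genes were called in that direction; 0 were called the other way (23.1% of all genes). Dnajb9 led with 1.82 ± 0.21 (log2, adjusted p = 1.0e-05), which is a 3.54-fold larger rise. Dnajc3 (1.36 ± 0.12), Pdia4 (1.35 ± 0.13), Ern1 (1.33 ± 0.11), Hspa13 (1.31 ± 0.10) and Hspa5 (1.25 ± 0.13) followed. By role, the contrast was called for 9 of 11 HSP70 system genes, 5 of 8 disulfide enzymes, 5 of 6 lectin cycle genes, 1 of 2 in the HSP90 pair, 1 of 4 prolyl isomerases and all 5 sensors. The sensors ranged from 0.24 ± 0.08 for Creb3l2 (adjusted p = 0.019) to Ern1; the Creb3l2 call was lost under 4 other settings and without any of 3 single libraries.

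Txndc5 (-0.23 ± 0.16), Txndc11 (-0.29 ± 0.13) and Pdia5 (-1.0 ± 1.1) were the genes with a negative estimate, and none of them was called. For Txndc5 and Txndc11 the IgE iGC level was already higher. Without IgG1 PC replicate 1 the contrast was called for 32 genes, all positive. With total-count scaling it was called for 22 positive and 2 negative; the median over all genes was then -0.30.

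**Figure D4:**
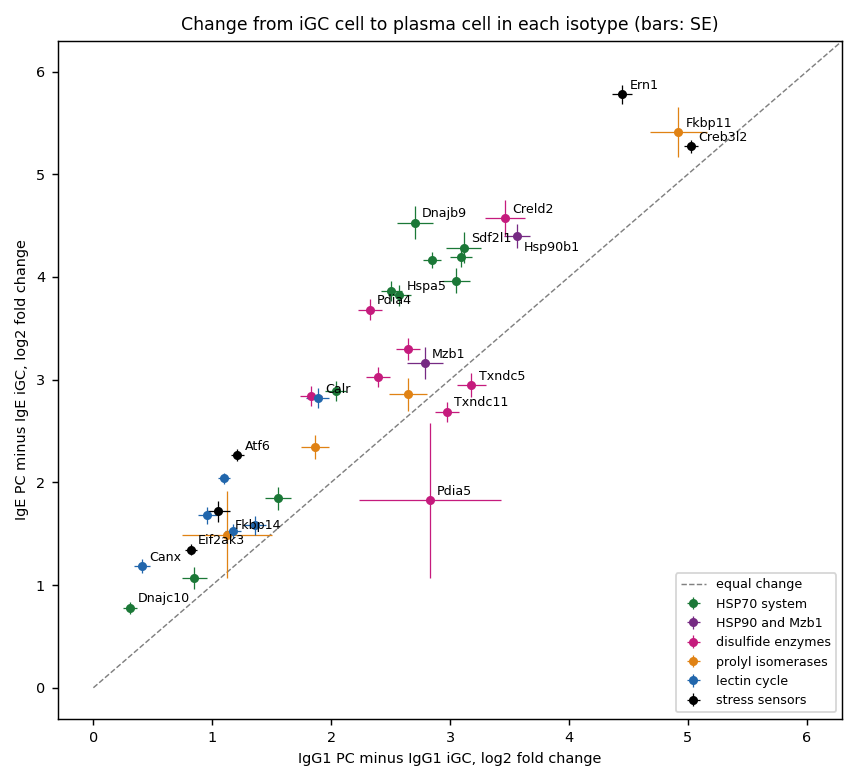
Log2 fold change from iGC to PC in IgG1 (x axis) and in IgE (y axis) for the 36 genes, coloured by role, with SE bars and a dashed line of equal change. All points lie above 0 on both axes, and 33 of 36 lie above the line; Txndc5, Txndc11 and Pdia5 lie below it.

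**Figure D5:**
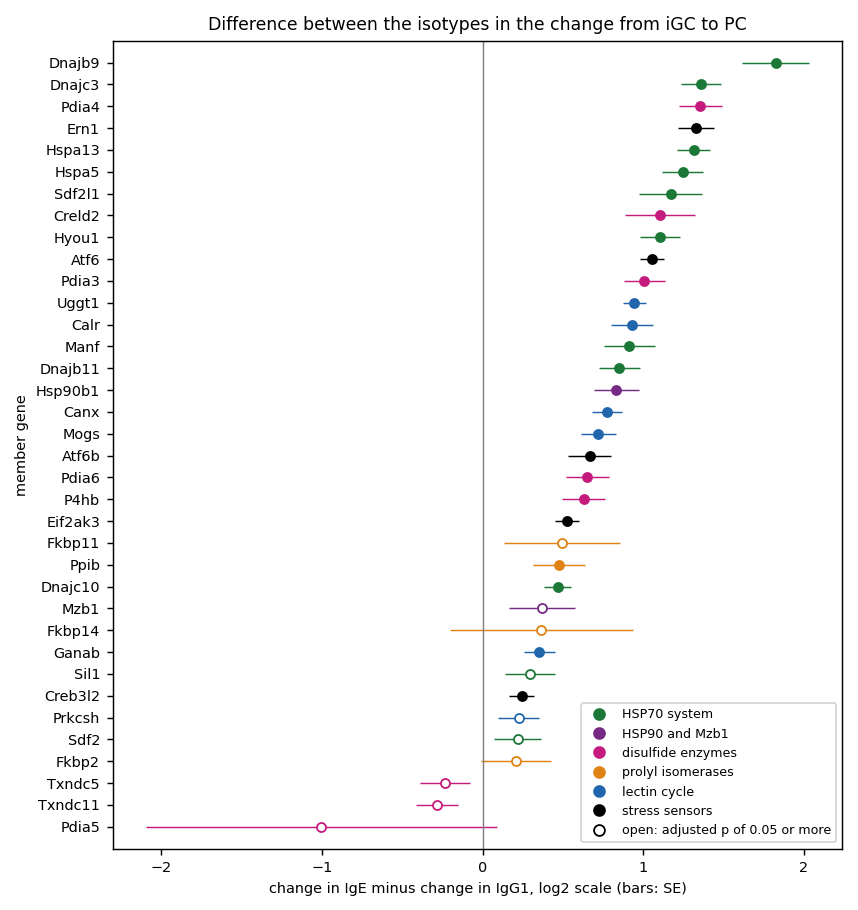
The log2 change in IgE minus the log2 change in IgG1 for each gene, with SE bars; filled points are called and open points are not. The 26 filled points all lie right of 0, from Creb3l2 at 0.24 to Dnajb9 at 1.82.

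The day 6 culture lay between iGC and plasma cells for most of these genes. In IgE iGC 22 of 36 were lower than at D6 (36.3% of all genes were) and 5 were higher (32.8%); in IgG1 iGC 24 were lower (36%) and 4 higher (32.4%). In IgE PC 33 were higher than at D6 (36.9% of all genes) and 2 lower (39.5%), and in IgG1 PC 33 were higher (35.9%) and 3 lower (36%). These comparisons share the D6 libraries. In IgG1 iGC each of 6 refits without 1 library called 23 lower, and Prkcsh lost its call under 8 alternatives. For 19 of 36 the mRNA was called lower than D6 in both iGC groups and higher than D6 in both plasma cell groups. The share of all genes with this joint pattern was not counted. Hspa5 is an example, with 1036, 1097 and 1128 CPM at D6, 2.39-fold below IgG1 PC and 6.40-fold below IgE PC.

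Of the genes that fell from D6 to iGC and were well detected, Fkbp11 fell most, by 1.95 in IgE and 1.98 in IgG1 (log2), from 5.29, 5.50 and 4.52 CPM. Creb3l2 (21.0, 21.3 and 21.2 CPM at D6) fell by 1.31 and 1.78, Pdia6 by 1.42 and 1.64, and Pdia3 by 1.31 and 1.47. In the HSP70 system Hspa5 fell most in IgE iGC, by 1.14, and Sdf2l1 in IgG1 iGC, by 1.43; Mzb1 fell by 1.14 and 1.29, and in the lectin cycle Canx fell most, by 1.13 and 1.17. The promoters with an ERSE or ERSE-II belonged to 8 genes. All 8 were called lower than D6 in both iGC groups, where 36.3% and 36% of all genes were. In the interaction contrast 8 of 8 were called positive (19.8% of all genes), with a median of 0.89. Of the 22 searched genes without either motif, 10 fell in IgE iGC, 12 fell in IgG1 iGC, and 14 were called in the interaction contrast, with a median of 0.48. These 22 include the barely detected Pdia5 and Fkbp14. The core of the UPR element was held by 5 genes, among them Hspa5, which also has an ERSE. Of these 5, 2 fell in IgE iGC, 3 fell in IgG1 iGC, and 2 were called in the interaction contrast, with a median of 0.49. These medians and counts are descriptions and were not tested against each other.

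Other members went the other way. Eif2ak3 was at 48.1, 44.7 and 47.4 CPM at D6, below every iGC library, and rose by 0.85 in IgE iGC and 0.55 in IgG1 iGC. Atf6, at 104, 110 and 112 CPM at D6, rose by 0.51 and 0.38. Sdf2 rose by 0.52 and 0.39, Dnajc10 by 0.43 and 0.26, and Txndc11 by 0.71 in IgE iGC (0.18 ± 0.09 in IgG1 iGC, adjusted p = 0.11). For Ern1 the direction was down, from 22.0, 26.4 and 27.9 CPM at D6, by 0.74 and 1.24. The sensors of the UPR thus differed in sign over this interval: Atf6 and Eif2ak3 rose, Ern1 and Creb3l2 fell, and Atf6b (0.04 and 0.05) was not called.

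Canx, Pdia5 and Fkbp14 did not exceed D6 in plasma cells. Canx measured 924, 967 and 979 CPM at D6; IgE PC overlapped this range (log2 0.05 ± 0.07, adjusted p = 0.51), and IgG1 PC lay below it (-0.76 ± 0.07, adjusted p = 7.0e-08). For Canx in IgE PC the sign depended on the scaling, with -0.49 under total counts and -0.12 under the upper quartile. Pdia5 and Fkbp14 were lower than D6 in all 4 sorted groups, where the sums of feeder markers were lower as well (11 of 13 called lower in each iGC group).

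Among 22 other UPR regulators, 19 passed the filter; 14 rose and 4 fell in the IgE step, where 30.5% of all genes rose and 33.6% fell, and 13 rose and 4 fell in the IgG1 step (30.1% and 29% of all genes). Xbp1, the transcription factor whose mRNA IRE1 splices, went from 192, 176 and 162 CPM to 1847, 1895 and 1974 CPM in IgE and from 140, 138 and 124 CPM to 2397, 1664 and 1607 CPM in IgG1. The plasma cell groups overlapped, with no difference called between them (log2 0.01 ± 0.12), and the interaction estimate was -0.39 ± 0.17 and not called. Gene counts do not separate spliced from unspliced Xbp1. The largest rise in IgE was that of Trib3, a pseudokinase induced downstream of PERK, at 3.85 in IgE and 1.43 in IgG1 (log2), followed by Xbp1, Wfs1 (3.11 and 2.43), the ER-associated degradation gene Herpud1 (3.06 and 1.57) and Creb3l1 (2.71 and 1.94). Of the PERK branch, the genes singled out after their values were seen were Atf4 (1.98 and 1.10) and Ddit3 (2.37 and 1.22); both were called in the interaction contrast, at 0.88 ± 0.12 and 1.15 ± 0.18.

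Among 35 other ER folding genes, 33 passed the filter; 18 (54.5%) rose and 7 (21.2%) fell in IgE, and 18 (54.5%) rose and 5 (15.2%) fell in IgG1, against the same shares of all genes, with medians of 0.43 and 0.44 (log2). Selenom, an ER selenoprotein of low level (0.389 to 0.523 CPM in IgE iGC and 7.23 to 7.95 CPM in IgE PC), rose by 4.04 in IgE and 3.33 in IgG1. Prdx4, the ER peroxiredoxin, rose by 2.94 and 2.87. Ero1l, the oxidase that recharges protein disulfide isomerase, was at 71.1, 67.6 and 68.4 CPM in IgE iGC and 474, 457 and 539 CPM in IgE PC. In IgG1 it was at 65.0, 67.4 and 70.8 CPM and then 122, 135 and 121 CPM. Its groups did not overlap between plasma cells, and its interaction estimate of 1.93 ± 0.11 exceeded that of Dnajb9. Of 30 cytosolic chaperones, 5 rose and 15 fell in IgE, where 30.5% of all genes rose and 33.6% fell, and 7 rose and 13 fell in IgG1 (30.1% and 29%). Their share that rose in IgG1, 23.3%, was near that of all genes. Hspa8, the constitutive cytosolic HSP70, fell by 1.22 and 0.34, and Hsp90aa1 by 1.09 and 0.27. The sum of the 36 ER genes relative to that of the 30 cytosolic chaperones, on the TPM scale, was 0.698 in IgE iGC and 9.45 in IgE PC, and 0.606 and 3.75 in IgG1.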

How the data were processed

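PolyA RNA from 15 libraries (5 groups of 3 biological replicates, per the labels) was analysed from 1 table. The authors deposited, per the file headers, RSEM expected counts per gene and TPM values, which RSEM scales for length and library total. The submitters' processing notes name cutadapt 1.9.1, STAR 2.5.2a, RSEM 1.3.0, DESeq2 1.12.3 and build GRCm38; the annotation is not given in the sources used here.

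Expected counts were rounded and filtered with filterByExpr (minimum count 10, minimum total 15), scaled by TMM and fitted with 1 mean per group in edgeR 4.0.16 (R 4.3.3), with glmQLFit (robust) and glmQLFTest and Benjamini-Hochberg adjustment over 15692 genes. SE is the log2 change divided by the square root of F, with the spread shared by all groups, and is approximate. CPM uses TMM-scaled library sizes. Alternatives used DESeq2 1.42.0, limma 3.58.1 on log2(TPM + 1), other scalings and filters, the compared groups alone, a replicate block and each library left out. The fit was tested on simulated data in which every group had the same spread. That test therefore does not cover the wider spread of IgG1 PC. Promoter motifs were matched exactly in RefSeq sequences of GRCm38.p6. The replicate pairs of each group differed by more than sampling noise (chi-square per degree of freedom 4.45 to 98.2).

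The members, the other gene lists and the naming rule were chosen with earlier results of these data known. By that rule every member is accounted for, and values per library are given for the members that changed most in each role group, the sensors and called members that went against the rest; of each other list at most 5 called genes with the largest changes are named. Other genes of those lists, and values per library beyond the rule, were added after the values were seen. Reads carry no molecular identifiers. Library totals set the precision for low genes.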

Additional observations from a re-analysis of the deposited data

Results flagged for a closer look

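The change from iGC to plasma cell differed between IgE and IgG1, by the interaction contrast in edgeR's quasi-likelihood test, for 26 of the 36 genes. The values are the log2 change in IgE minus that in IgG1, and 19.8% of all genes tested were called in this direction. In the HSP70 system they were 1.82 for Dnajb9, 1.36 for Dnajc3, 1.31 for Hspa13, 1.25 for Hspa5, 1.17 for Sdf2l1, 1.10 for Hyou1, 0.91 for Manf, 0.85 for Dnajb11 and 0.47 for Dnajc10. Hsp90b1 differed by 0.83. Among the disulfide enzymes the differences were 1.35 for Pdia4, 1.11 for Creld2, 1.01 for Pdia3, 0.65 for Pdia6 and 0.63 for P4hb. In the lectin cycle they were 0.94 for Uggt1, 0.93 for Calr, 0.77 for Canx, 0.72 for Mogs and 0.35 for Ganab, and among the prolyl isomerases 0.47 for Ppib. The sensors differed by 1.33 for Ern1, 1.05 for Atf6, 0.67 for Atf6b, 0.52 for Eif2ak3 and 0.24 for Creb3l2. The calls of Ppib, Ganab and Creb3l2 were lost with total-count scaling and with upper-quartile scaling. That of Dnajc10 was lost with total-count scaling and with limma on log2(TPM + 1), and that of Creb3l2 also with limma and without the count filter. Leaving out IgE iGC replicate 3, IgG1 iGC replicate 3, IgG1 PC replicate 2 or IgG1 PC replicate 3 also ended the call of Ppib, and leaving out IgE iGC replicate 1, IgG1 iGC replicate 2 or IgG1 iGC replicate 3 that of Creb3l2.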

How the results depend on the processing

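The labels do not say whether libraries that share a replicate number share an animal or a culture. Such libraries deviated from their groups with correlations of -0.23 to 0.15 (8 of 30 pairs over 0.1). Deviations from means of 3 libraries cannot decide whether the numbers pair them. With the replicate number as a block, 35 and 36 members rose in the IgE and IgG1 steps, and 33 were higher and 1 lower in IgE PC than in IgG1 PC. Limma on log2(TPM + 1) called 1 member lower in the IgG1 step, 2 lower in the interaction contrast, 2 higher in IgE iGC than in IgG1 iGC, and 5 lower in IgG1 PC than at D6. Fits to the compared groups alone called 13 higher and 1 lower between the iGC groups and 7 higher in IgG1 iGC than at D6; they gave no value for Pdia5 or Fkbp14 where these failed the filter. Total-count scaling gave 2 negative interaction calls and upper-quartile scaling, added after the data were seen, 1. With each library left out in turn, 0 to 1 members were lower in IgE PC than IgG1 PC, and 24 to 32 positive and 0 to 1 negative interaction calls were made. Signs turned for Dnajc10 (-0.34) and Fkbp14 (-0.062) in the IgG1 step with limma, for Sil1 between plasma cells with total counts (-0.10), and for Fkbp14 there with limma (0.10) and without IgG1 PC replicate 1 (0.015, in a range down to -0.36 without IgE PC replicate 2). Against D6 they turned for Canx in IgE PC (total counts -0.49, limma -0.69, upper quartile -0.12) and, with limma, for Dnajc10 (-0.23) and Pdia3 (-0.60) in IgG1 PC and Ganab (-0.13) in IgG1 iGC. Over members and alternatives, signs that differed with no call on either side numbered 11 and 15 for IgE and IgG1 iGC against D6, 11 between the iGC groups, 3 between the plasma cell groups, 3 in the interaction contrast and 1 in IgE PC against D6. The cause was not tested. The other alternatives run (DESeq2, immunoglobulin genes removed, no filter) stayed within 1.5 times each count of members called. Shares of all genes called are given for the main fit only and are no background for counts under other settings.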

Other observations

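A few ER folding genes, singled out after their values were seen, differed from most of the 36 in direction between the isotypes. Of the 36, Pdia5 was also highest at D6 and higher in IgG1 PC than in IgE PC. Serpinh1, the collagen chaperone HSP47, was at 29.0, 43.0 and 43.0 CPM at D6, at 3.67 to 5.28 CPM in IgE iGC and 1.71 to 4.05 CPM in IgG1 iGC, at 2.23 to 3.47 CPM in IgE PC, and at 17.7, 5.15 and 13.9 CPM in IgG1 PC. Fkbp9, Fkbp10 and Ppic, prolyl isomerases of the ER, had the same order of high D6 and IgG1 PC above IgE PC, with differences between IgE PC and IgG1 PC of -2.34, -2.68 and -2.23 (log2, edgeR, all called). Summed feeder markers were 196, 278 and 275 TPM at D6 and 64.8, 34.4 and 75.9 TPM in IgG1 PC, with replicate 2 lowest in IgG1 PC for the sum and for Serpinh1. Their part in these genes was not tested.

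Also chosen after their values were seen, Serp1, which stabilises proteins at the ER translocon, and Sec63, a J-domain protein of that translocon, rose in IgE by 2.09 and 2.04 and in IgG1 by 0.61 and 1.06 (log2), and both were called in the interaction contrast (1.48 ± 0.13 and 0.97 ± 0.10).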
